A study of Homo sapiens with 3 samples.

Results

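SST-rich cells were the barcodes in which somatostatin transcripts made up at least 1% of all UMIs (unique molecular identifiers, 1 per captured transcript) and were at least as many as the insulin transcripts. Members were thus chosen by their SST and INS values, among barcodes with 1000 or more detected genes and a mitochondrial UMI share no higher than 20%. The rule found 112 cells of the 3653 that passed these filters: 30 of 1160 in replicate 1, 53 of 1027 in replicate 2 and 29 of 1466 in replicate 3. They came from stem-cell-derived alpha (SC-alpha) cells, made by directed differentiation of HUES8, a human embryonic stem cell line, and profiled with 10x Genomics 3' v3 chemistry. The 3 libraries form a single group without a treated, mutant or untreated arm, so every comparison below is between cells of the same libraries. No label says whether the replicates were separate differentiations, so p-values measure only the spread between these libraries, which may be technical. All cells carry the genome of 1 cell line.

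Somatostatin, the product of SST, is the peptide hormone of pancreatic delta cells, which restrain their neighbours: it acts on Gi-coupled receptors of alpha and beta cells and lowers glucagon and insulin release. Delta cells in the adult islet are known for the homeobox repressor HHEX, for RBP4, a retinol carrier, and for LEPR, the leptin receptor. Alpha cells make glucagon (GCG), which raises blood glucose. Endocrine cells of the fetal pancreas and of stem cell cultures often hold more than 1 hormone RNA, and such cells are called polyhormonal.

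The comparator was the 1868 kept cells with GCG at 5% of UMIs or more and SST under 0.05% (607, 563 and 698 per library). Because SST and INS chose the SST-rich cells and GCG and SST chose the comparator, the values of these 3 genes are descriptions without a test, and the genes were left out of the library sizes and fits. CPM (counts per 1000000) below means UMIs scaled to the remaining UMIs, summed over the cells of a class in 1 library. The kept cells had a median of 15267, 20721 and 9991.5 UMIs per library, and no kept barcode occurred in more than 1 library. SST-rich cells had medians of 18369.5, 27590 and 12526 UMIs, above the 15916, 21574 and 10364.5 of the comparator. Scrublet, a caller of barcodes that hold 2 cells, marked 1, 1 and 0 of the SST-rich cells. Collagen cells (8, 3 and 56 with COL1A1, COL1A2 and COL3A1 together at 0.5% of UMIs or more) served as the class that should lack islet genes. Their median SST share was 0% in each library, and their median GCG share was 0.107%, 0.134% and 0.0739%.

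SST-rich cells were 2.59%, 5.16% and 1.98% of the kept cells in replicates 1, 2 and 3, a mean of 3.24% ± 1.69 (SD, n = 3). The exact 95% Clopper-Pearson intervals were 1.75% to 3.67%, 3.89% to 6.70% and 1.33% to 2.83%, and cover counting error only. Replicate 2 held the highest share, and its interval lies above both others. The rare cells held most of the somatostatin RNA: 60.4%, 77.9% and 65.1% of all SST UMIs of the kept cells fell in them. Their SST share ran from 1.03% to 33.8%, with medians of 2.25%, 2.33% and 1.70%. In replicate 3 a single cell held 35.8% of the members' SST UMIs, against 14.2% and 17.1% for the top cells of replicates 1 and 2. No gap in SST marked the threshold. The lowest members had 1.03%, 1.08% and 1.06%, and the highest cells outside had 0.944%, 0.980% and 0.962%.

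Most SST-rich cells also held much glucagon RNA. GCG reached 5% of UMIs in 19 of 30, 37 of 53 and 24 of 29 cells (63.3%, 69.8% and 82.8%). The mean was 72.0% ± 9.89 (SD, n = 3), and GCG reached 1% in 83.3% ± 8.72. Among all kept cells GCG reached 5% in 73.6%, 83.7% and 62.3%, so this trait was not particular to SST-rich cells. Their share was below that of all kept cells in replicates 1 and 2 and above it in replicate 3. The median GCG share of SST-rich cells was 6.50%, 11.04% and 12.99%, beside 12.98%, 13.8% and 10.2% in the comparator, which needed 5% to enter. Insulin RNA was rarer: INS reached 1% of UMIs in 1, 8 and 1 cells, and in 7 of these 10 cells, all in replicate 2, GCG also did. SST was the highest of the 3 hormones in 11, 11 and 3 cells, or 25 of 112. Neither GCG nor INS reached 1% in 7, 6 and 2 cells, or 15 of 112. The others held GCG, INS or both at the 1% mark.

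The remaining hormone RNAs of the islet were scarce. GHRL, the ghrelin gene, stood at 10.2, 13.9 and 3.3 CPM, and PPY, the pancreatic polypeptide gene, at 2.0, 0.9 and 0 CPM. GHRL was as low in the comparator, at 14.5, 15.01 and 7.6 CPM, and the groups overlapped.

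**Figure D1:**
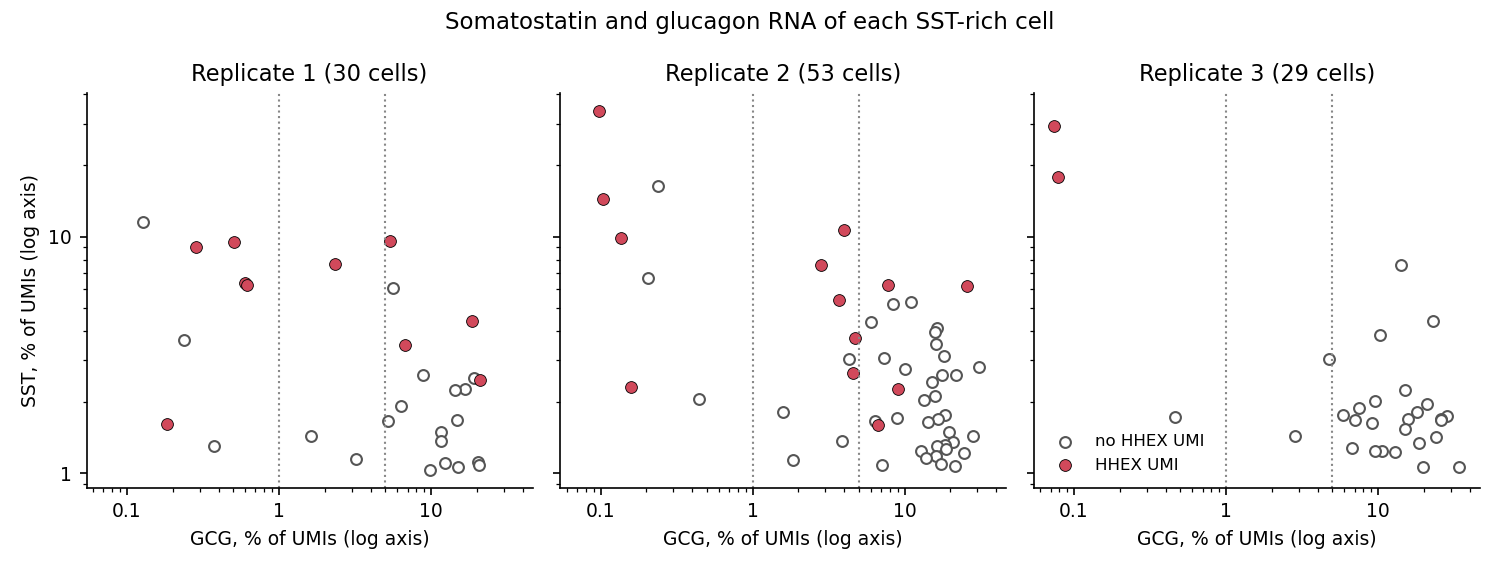
Each point is 1 SST-rich cell, with its GCG share (x, log axis) and SST share (y, log axis) in percent of UMIs, by library; dotted lines mark GCG at 1% and 5%, and filled points have at least 1 HHEX UMI. The cells with GCG under 1% (8, 7 and 3 per library) lie left of the 1% line, and 17 of the 25 filled points lie left of the 5% line.

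The 18 cells with GCG under 1% had GCG shares of 0.0738% to 0.612%, and the collagen cells reached 0.154%, 0.146% and 5.54% in replicates 1, 2 and 3. Their SST shares were higher than those of the other SST-rich cells, with a median of 7.86% against 1.69% in the 57 cells with GCG at 10% or more. SST and GCG shares are parts of the same total and so are not independent, and the size of this effect was not tested. The lowest SST share among the 18 cells was 1.30%, in a cell of replicate 1 with 0.375% GCG. The 18 cells spanned 2210 to 34838 UMIs.

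The SST and GCG genes, and HHEX and PCSK1, which follow below, are shown here by the 120 bases before their RefSeq transcription start (GRCh38.p14), because the results below turn on these genes. The windows are chr3:187670395-187670514 (minus strand) for SST, chr2:162152248-162152367 (minus) for GCG, chr10:92689835-92689954 (plus) for HHEX and chr5:96433249-96433368 (minus) for the first of the PCSK1 starts listed. Capitals mark TGACGTCA, the palindromic cAMP response element, which reads the same on both strands.
SST: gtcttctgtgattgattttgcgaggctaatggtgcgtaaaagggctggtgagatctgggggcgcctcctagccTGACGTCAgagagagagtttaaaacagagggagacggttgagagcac
GCG: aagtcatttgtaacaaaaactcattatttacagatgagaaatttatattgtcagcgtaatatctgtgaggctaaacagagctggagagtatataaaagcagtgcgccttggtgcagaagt
HHEX: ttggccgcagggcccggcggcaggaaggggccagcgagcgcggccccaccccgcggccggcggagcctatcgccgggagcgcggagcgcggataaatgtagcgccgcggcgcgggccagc
PCSK1: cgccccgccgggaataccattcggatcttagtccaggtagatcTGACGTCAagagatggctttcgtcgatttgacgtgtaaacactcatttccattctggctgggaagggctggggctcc
The element began 47 bases before the SST start and 77 bases before this PCSK1 start. It was not found in the 250 bases before the GCG and HHEX starts or before the other listed PCSK1 start, chr5:96432161-96432280. Of 35116 RefSeq promoters, 578 (1.65%) held it in their 250 bases. A match describes the letters and is not evidence of a bound site.

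HHEX, the defining transcription factor of delta cells, marked a share of the SST-rich cells. Summed over cells it stood at 47.0, 29.4 and 13.1 CPM in replicates 1, 2 and 3, against 0.1, 0.1 and 0.6 CPM in the comparator. The lowest SST-rich library exceeded the highest comparator library. The values rest on 23, 34 and 4 UMIs in the SST-rich cells and on 1, 1 and 4 UMIs in the comparator. Pooled, the ratio of CPM was 134, with an exact 95% counting interval of 58.3 to 380, and in replicate 3 it was 21.6 with an interval of 4.03 to 116. The edgeR quasi-likelihood fit with library as block gave a log2 fold change of 6.89 ± 0.54 (SE, adjusted p = 1.91e-11), a size that depends on the few comparator UMIs. Over all genes, 90 of 12236 (0.736%) were called higher and 61 (0.499%) lower in SST-rich cells at an adjusted p under 0.05. The counts were 46 and 36 without replicate 1, and 5 and 1 without the library block, and HHEX was called in both.

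HHEX UMIs were found in 25 of the 112 SST-rich cells (10, 13 and 2 per library) and in 6 of the 1868 comparator cells. Among all kept cells with a HHEX UMI, 25 of 66 were SST-rich. After each cell was thinned to 5000 UMIs, 16 of 103 SST-rich cells still had one, against 0 of 1750 comparator cells (exact 95% upper bound 0.211%). Of 61 thinned collagen cells, 1 had a HHEX UMI. The HHEX cells had a higher median SST share, a value the rule used: it was 6.26%, against 1.69% in the SST-rich cells without a HHEX UMI, with near median depths of 20260 and 19513 UMIs. HHEX was detected in 16 of the 23 cells with SST at 5% or more and in 9 of the 89 below. No SST-rich cell had a UMI of MKI67 or TOP2A, genes of dividing cells.

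Among the other delta markers no gene passed the test. Of the 10 delta markers beside SST, 6 had enough counts to be tested, and HHEX alone was called. RBP4 stood at 53.2, 15.6 and 0 CPM in SST-rich cells and at 11.4, 12.1 and 3.5 CPM in the comparator. It was above the comparator in replicates 1 and 2 and below it in replicate 3, with a log2 fold change of 1.14 ± 0.34 (edgeR adjusted p = 0.109). RBP4 was called in 3 of 14 alternatives: without replicate 2, where the log2 fold change was 1.86, without replicate 3 and without a filter on low counts. Without replicate 1 it was 0.20. LEPR stood at 6.1, 4.3 and 0 CPM, against 5.5, 4.3 and 2.3 CPM, and the groups overlapped (log2 fold change -0.10 ± 0.60). CASR, the calcium-sensing receptor, stood at 53.2, 59.7 and 45.8 CPM against 45.9, 34.5 and 32.5 CPM (log2 fold change 0.54 ± 0.18, adjusted p = 0.22). GHSR, the ghrelin receptor, and PRG4, a proteoglycan gene, had 0 UMIs in all 112 SST-rich cells, which allows up to 2.68% of such cells with a UMI. PRG4 had 27 UMIs in the comparator, and GHSR had 0 there too. BCHE and EDN3 had 2 and 7 UMIs in the SST-rich cells. The summed level of the 10 markers was 132 ± 50.1 CPM in SST-rich cells and 67.5 ± 10.0 CPM in the comparator (SD, n = 3), of which HHEX made up 29.9 and 0.27 CPM. In the GCG-low members, with GCG under 5%, the sum was 248.5 to 274.4 CPM, and in collagen cells 105.6 to 244.9 CPM. With HHEX left out, the other 9 markers summed to 135.0, 101.3 and 68.7 CPM in SST-rich cells against 77.8, 66.5 and 57.4 CPM, higher in each library. They summed to 190.9, 143.2 and 161.2 CPM in the GCG-low members. In INS-rich cells (INS at 1% of UMIs or more and above SST) they summed to 115.5, 107.3 and 205.8 CPM. That is above the SST-rich cells in replicates 2 and 3, so this rise was not particular to SST-rich cells.

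PCSK1 and PCSK2 encode prohormone convertases, enzymes that cut hormone precursors. PCSK1 stood at 42.9, 31.2 and 19.6 CPM in SST-rich cells against 3.9, 2.6 and 14.2 CPM in the comparator. The groups did not overlap, although replicate 3 differed least, and the log2 fold change was 2.66 ± 0.36 (edgeR adjusted p = 6.26e-06). With each cell thinned to 5000 UMIs the gene was no longer called. PCSK2 stood at 87.9, 64.1 and 114.6 CPM against 94.1, 60.7 and 115.3 CPM, and was not called. CPE, the carboxypeptidase that trims the cut ends, and PAM, which amidates peptides, were called higher. Their log2 fold changes were 0.34 ± 0.08 and 0.78 ± 0.18, and both calls were lost without replicate 1, with DESeq2 and when thinned. CPE kept its call in 9 of 15 alternatives, not without replicate 2 either, and PAM in 11 of 15. Of 9 processing genes tested, 3 were called higher and none lower, where 0.736% of all genes were called higher and 0.499% lower. The median log2 fold change of the 9 was 0.08, beside -0.01 over all genes tested.

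**Figure D2:**
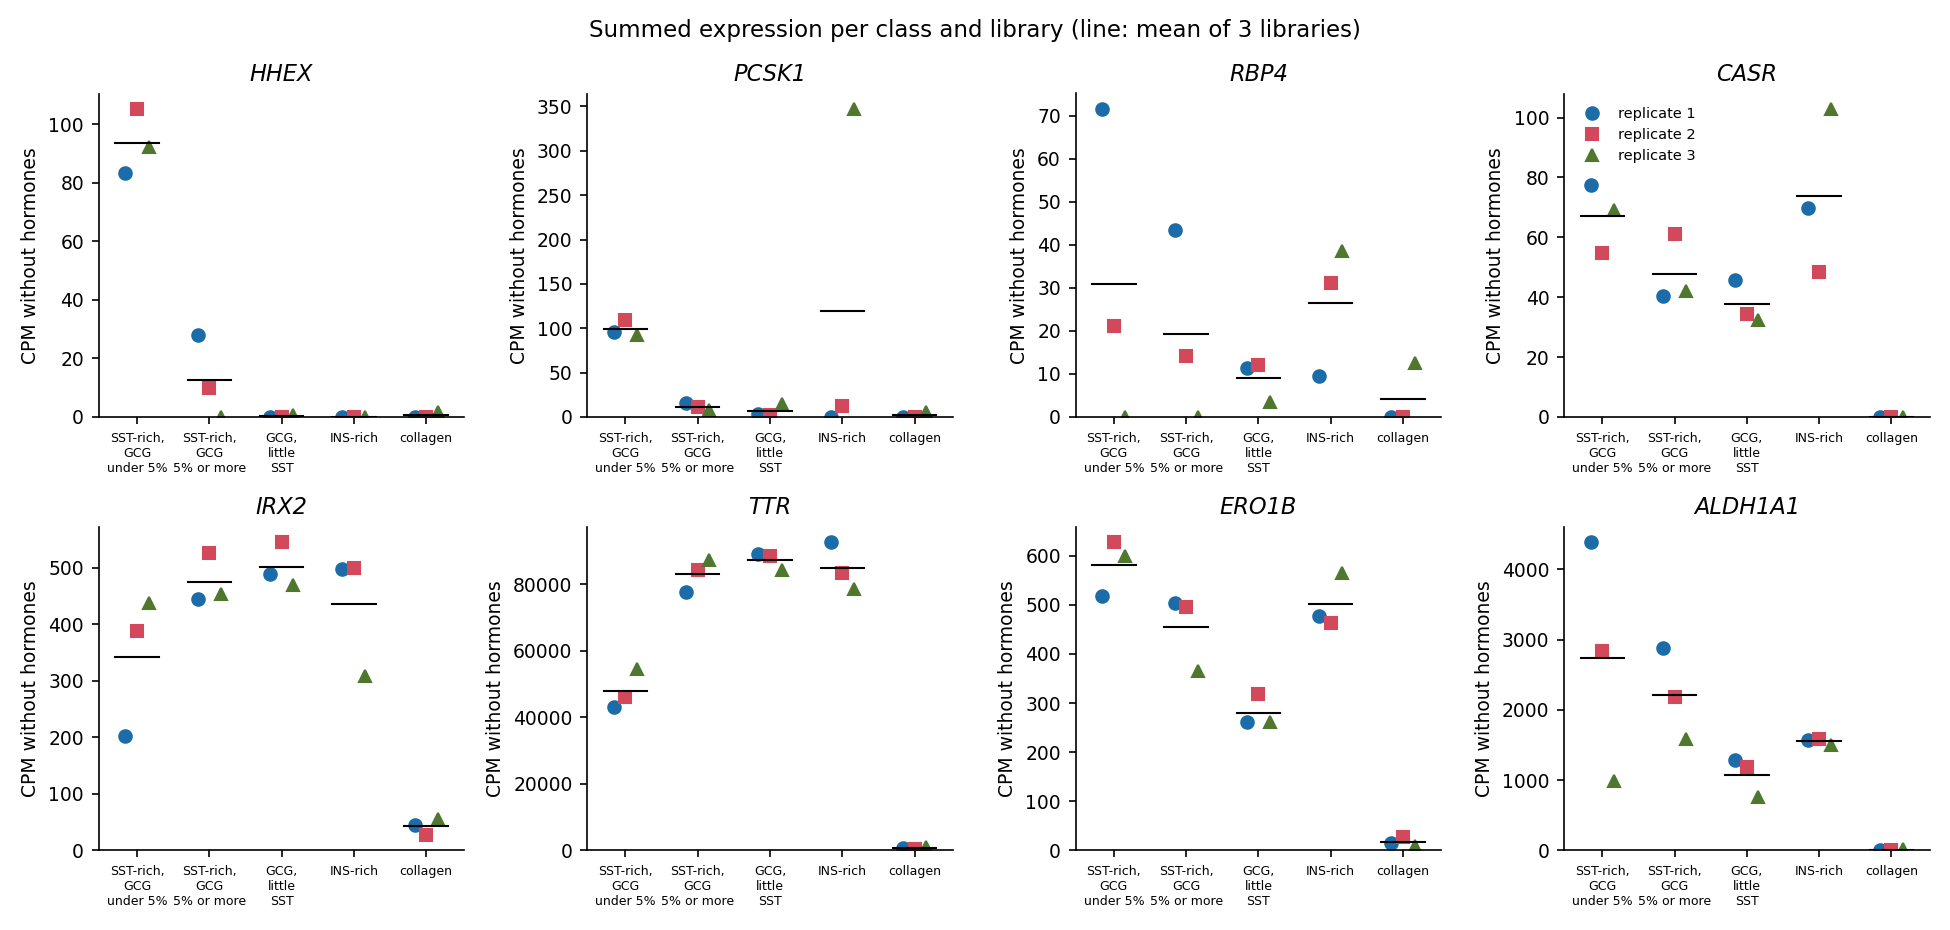
CPM without hormones (y, linear from 0) of 8 genes in 5 cell classes (x), with 1 point per library and a line at the mean of 3 libraries. HHEX and PCSK1 are high in SST-rich cells with GCG under 5%, and a single INS-rich library of 6 cells has a PCSK1 level of 347.2 CPM; TTR is lowest in the SST-rich cells with GCG under 5% among the islet classes.

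Alpha-cell genes stayed abundant in SST-rich cells, and some were lower. Of the 13 alpha markers beside GCG, all were tested, 5 were called lower and 1 higher, with a median log2 fold change of -0.28 beside -0.01 over all genes tested. DPP4, a dipeptidyl peptidase that alpha cells carry on their surface, stood at 306.7, 187.0 and 245.5 CPM against 514.4, 343.8 and 550.4 CPM (log2 fold change -0.92 ± 0.10). GC, the vitamin D binding protein, fell by 0.63 ± 0.09 on the log2 scale, and CRYBA2, a crystallin gene, fell by 0.46 ± 0.08, a call lost without replicate 1. LOXL4, a lysyl oxidase, had a log2 fold change of -1.29 ± 0.22. TTR, the transthyretin gene and among the most abundant alpha RNAs, stood at 65820, 76388 and 82553 CPM against 89104, 88541 and 84156 CPM and was not called (adjusted p = 0.0579). IRX2, IRX1, SLC7A2, FAP, PLCE1 and PCSK2 were not called either.

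TM4SF4, a tetraspanin-like gene on the alpha list, went the other way, with 300.6, 102.2 and 45.8 CPM against 101.8, 53.2 and 48.1 CPM (log2 fold change 1.07 ± 0.15). The libraries disagreed: it was higher in replicates 1 and 2 only, and 49.7% of its UMIs in replicate 1 came from 1 cell.

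Several genes of the beta list were higher in SST-rich cells. Of 10 beta markers beside INS, 7 were tested and 5 were called higher, with a median log2 fold change of 0.85 against -0.01 over all genes tested. ERO1B, an oxidase that forms disulphide bonds in the endoplasmic reticulum, stood at 509.2, 522.1 and 399.3 CPM against 261.4, 317.9 and 261.2 CPM, without overlap (log2 fold change 0.75 ± 0.09, edgeR adjusted p = 5.77e-07). NPTX2, a neuronal pentraxin, and DLK1, an imprinted Notch ligand, had log2 fold changes of 2.80 ± 0.48 and 0.85 ± 0.18, and DLK1 was not called without replicate 2. NPTX2 rested on 13, 12 and 1 UMIs in the SST-rich cells. Its call was lost when cells were thinned, at a mitochondrial limit of 15% and without the library block. PCSK1, described above, is on this list too. IAPP, the islet amyloid gene, was called mainly through 1 cell: 523.5, 25.1 and 6.5 CPM against 29.9, 8.6 and 3.0 CPM, with 58.2% of all its UMIs in that cell. PDX1 stood at 8.2, 19.0 and 16.4 CPM against 10.0, 13.4 and 9.1 CPM and was not called. MAFA and NKX6-1, factors of mature beta cells, had 0 UMIs in the SST-rich cells.

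Of 33 endocrine transcription factors, 29 were tested, of which HHEX was called higher and 1 was called lower. ISL1 stood at 343 ± 51.9 CPM against 283 ± 11.6, PAX6 at 229 ± 55.6 against 246 ± 25.1, NEUROD1 at 276 ± 8.69 against 309 ± 19.7 and RFX6 at 93.6 ± 14.1 against 84.6 ± 5.15 (SD, n = 3), and none of these was called.

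Some granule genes were higher in SST-rich cells. Of 12 secretory granule genes tested, 5 were called higher and none lower, with a median log2 fold change of 0.34. SCG2, a granin, stood at 1057.2, 472.7 and 481.1 CPM against 269.4, 257.2 and 433.1 CPM (log2 fold change 1.05 ± 0.15). VGF, a granule peptide precursor, stood at 130.9, 91.8 and 72.0 CPM against 46.3, 55.5 and 58.6 CPM (0.88 ± 0.16). PTPRN, a granule membrane protein, stood at 777.0, 666.7 and 572.8 CPM against 467.8, 448.2 and 543.9 CPM (0.47 ± 0.09). None of these 3 overlapped between classes, and replicate 3 showed the smallest gap for each. Of all 151 genes called in this contrast, 91 did not overlap, so this was common among called genes. CHGA, chromogranin A, and SLC18A2, the vesicular monoamine transporter, had log2 fold changes of 0.32 ± 0.06 and 0.56 ± 0.15, and CHGB was not called (0.02 ± 0.09). SLC18A2 kept its call in 4 of 15 alternatives. VGF and PTPRN lost theirs without replicate 1 (0.58 and 0.35) and when thinned. SCG2, at 0.56 without replicate 1, lost its call with DESeq2. None of 18 exocytosis genes, 17 ion channel genes tested and 10 somatostatin receptor and coupler genes tested was called. Over all genes 0.736% were called higher and 0.499% lower, so lists this short may hold no call at that rate alone. SSTR2, the main somatostatin receptor of alpha cells, stood at 388.5, 388.7 and 261.8 CPM in SST-rich cells and at 424.1, 456.3 and 384.7 CPM in the comparator.

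Outside the islet lists the SST-rich cells were high in ALDH1A1, the retinaldehyde dehydrogenase that makes retinoic acid. It stood at 3394.5, 2322.9 and 1505.5 CPM in SST-rich cells and at 1282.2, 1194.3 and 757.4 CPM in the comparator, higher in each library and without overlap (log2 fold change 1.11 ± 0.08, edgeR adjusted p = 2.91e-12). It was the only gene of the retinoid list called, of 9 tested. HOPX, an atypical homeodomain gene, stood at 108.4, 83.1 and 55.6 CPM against 30.5, 21.4 and 34.7 CPM (1.63 ± 0.18). PEG10, an imprinted retrotransposon-derived gene, LGALS2, a galectin, and C2CD4A had log2 fold changes of 1.03, 1.19 and 1.40, and PCP4, LY6H and NEFM, genes of neurons, of 2.32, 1.11 and 1.82. Each of these 6 was higher in all 3 libraries, but NEFM overlapped between classes. Without replicate 1, NEFM and LY6H had log2 fold changes of 0.70 and 0.44 and were not called, and LGALS2 was not called without replicate 2.

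Peptide genes outside the islet set were called in part through single cells. CRH, corticotropin-releasing hormone, stood at 699.3, 484.8 and 196.4 CPM against 149.2, 106.0 and 220.3 CPM, higher in 2 of 3 libraries (log2 fold change 1.65 ± 0.19). NTS, neurotensin, was called at 5.07 ± 0.44, but 94.4% of its UMIs came from 1 cell of replicate 1. GAL, galanin, stood at 10.2, 10.4 and 3.3 CPM against 3.1, 2.1 and 1.4 CPM (1.97 ± 0.52), all low levels. GAL kept its call in 7 of 11 alternatives, and lost it without replicate 2 and with DESeq2, among others. edgeR pooled the spread across genes. With its robust estimate of that spread, CRH, NTS, IAPP, SCG2, CRYBA2, SPINK1, APOC3, GAP43, PCP4, NEFM and LY6H were no longer called.

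Some liver-type genes were lower in SST-rich cells. Of 8 hepatic markers, 6 were tested, 4 were called lower and none higher, with a median log2 fold change of -0.61. AFP, alpha-fetoprotein, stood at 51.1, 86.6 and 9.8 CPM against 222.7, 255.9 and 28.8 CPM, lower in each library, while replicate 3 lay below the others in both classes (log2 fold change -1.76 ± 0.15). APOC3, APOA1 and SERPINA1 fell by 0.70, 0.51 and 0.26 on the log2 scale. SERPINA1 kept its call in 6 of 15 alternatives and none of those that left out a replicate, and APOA1 kept it in 9 of 15, not without replicate 1. Outside the lists APOB and VTN, which liver cells secrete, fell by 1.10 and 1.02, CD74, the invariant chain, by 1.36, IFIH1, an RNA sensor, by 1.10 and TXNIP by 1.00. SPINK1, a trypsin inhibitor listed with epsilon and PP markers, stood at 832.3, 1529.0 and 1335.3 CPM against 2028.6, 2671.0 and 1862.2 CPM (-0.87 ± 0.09). Of 14 immediate early and heat shock genes, 4 were called lower (IER2, FOSB, DUSP1 and EGR1) and 1, HSPA1A, higher. These respond to handling of cells, and their part in the other differences was not tested.

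Markers of other lineages stayed low. Mesenchymal markers summed to 3.3 to 11.3 CPM in SST-rich cells and 4.6 to 13.9 CPM in the comparator, with COL1A2, DCN and MGP at 0. The summed neural or glial list was 352.4 to 482.6 CPM against 212.3 to 347.1 CPM, mostly STMN2, and SOX2 was at 0. NEUROG3, the factor of endocrine progenitors, was at 0 UMIs in SST-rich cells. The part of cell mixing in these values was not tested.

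**Figure D3:**
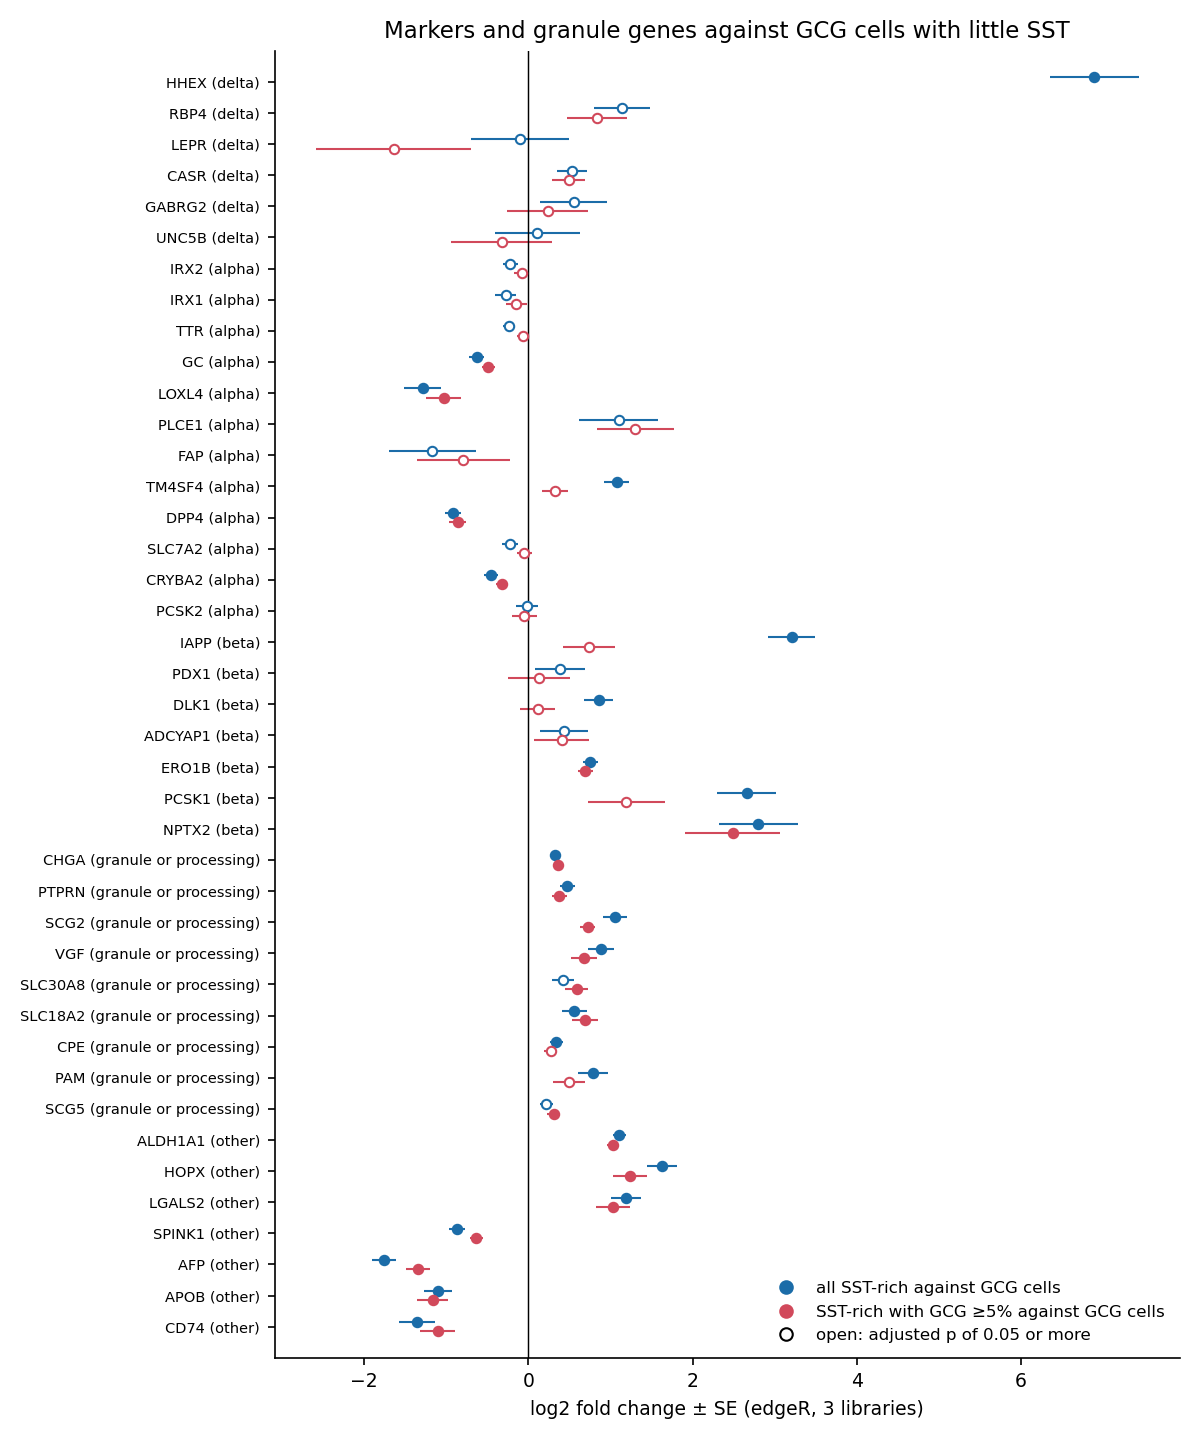
Log2 fold change ± SE (x) for delta, alpha and beta markers, granule and processing genes and other named genes (y), for all SST-rich cells (blue) and those with GCG at 5% or more (red) against the same comparator; open points had an adjusted p of 0.05 or more. HHEX, at 6.89, stands farthest right and was not tested in the second contrast; the granule and processing genes drawn are those called in either contrast, and GC, LOXL4, DPP4 and CRYBA2 lie left of 0.

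SST-rich cells with GCG at 5% or more (19, 37 and 24 cells) were then set against the same comparator, to see what differed where both sides had GCG at 5% or more; their median GCG shares were 12.3%, 16.01% and 15.04% against 12.98%, 13.8% and 10.2%. This contrast shares its comparator with the one above, so the values are given side by side and are not independent. Of 12188 genes, 36 (0.295%) were called higher and 36 (0.295%) lower. The counts were 20 and 18 without replicate 1 and 19 and 21 without replicate 2. Without the library block edgeR called 0 in each direction, with 311 higher and 378 lower at an unadjusted p under 0.05. In this contrast and in that between members described next, edgeR's spread was pooled over genes almost wholly (prior degrees of freedom of 1815 and infinite), so a gene's own spread between the 3 libraries counts little and small p-values overstate the certainty. HHEX stood at 28.0, 9.8 and 0 CPM in these cells and had too few counts to be tested. PCSK1 stood at 15.6, 10.9 and 7.6 CPM against 3.9, 2.6 and 14.2 CPM and was not called (log2 fold change 1.19 ± 0.47). None of 28 transcription factors tested was called, where 0.295% of all genes were called in each direction.

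The genes called in the GCG-rich members included granule genes, ALDH1A1 and a few alpha markers. Granule genes were called higher in 6 of 12: SCG2 (0.72 ± 0.09), SLC18A2 (0.69 ± 0.16), VGF (0.68 ± 0.16), SLC30A8 (0.59 ± 0.14), PTPRN (0.38 ± 0.09) and CHGA (0.36 ± 0.07). SCG2 stood at 497.8, 493.7 and 511.2 CPM, above all 3 comparator libraries. ALDH1A1 stood at 2878.0, 2189.4 and 1590.9 CPM, again without overlap (1.03 ± 0.07, edgeR adjusted p = 1.51e-37), and the gene was not called without the library block. SLC30A8, VGF, NPTX2 and LOXL4 lost their calls without replicate 1 and without replicate 2, SLC18A2 without replicate 2 and without replicate 3, and HOPX, APOB and CD74 without replicate 2. ERO1B stood at 504.0, 494.8 and 366.2 CPM (0.69 ± 0.09), and NPTX2 had a log2 fold change of 2.49 ± 0.58. DPP4, GC, CRYBA2 and LOXL4 of the alpha list fell by 0.86, 0.49, 0.32 and 1.03 on the log2 scale, while TTR stood at 77673, 84249 and 87173 CPM and was not called (-0.07 ± 0.07). AFP and APOC3 fell by 1.35 and 0.54, SPINK1 by 0.63 and IER2 and JUN by 0.55 and 0.35. CRH was called again at 1.43 ± 0.10, with 175.5 CPM in replicate 3 below the 220.3 CPM of its comparator. Outside the lists HOPX, FAM161A and LGALS2 were higher by 1.24, 1.20 and 1.03, and APOB and CD74 fell by 1.16 and 1.10.

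These cells had median depths of 18681, 30976 and 13563.5 UMIs, above the comparator in each library, and Scrublet marked 2 of the 80. Without the marked barcodes 33 genes were called higher and 35 lower. With all cells thinned to 5000 UMIs 12 were called higher and 17 lower.

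The SST-rich cells low in glucagon RNA (11, 16 and 5 cells with GCG under 5%) carried most of the HHEX. HHEX stood at 83.5, 105.3 and 92.1 CPM in them and at 28.0, 9.8 and 0 CPM in the GCG-rich members, higher in each library without overlap (log2 fold change 2.75 ± 0.45, edgeR adjusted p = 4.18e-07). After thinning it was found in 11 of 26 of the former and 5 of 77 of the latter, or 42.3% and 6.49%. By finer steps of GCG, HHEX was detected in 11 of 18 cells under 1%, 6 of 14 from 1% to under 5%, 5 of 23 from 5% to under 10% and 3 of 57 at 10% or more. PCSK1 ran alongside, at 95.4, 109.5 and 92.1 CPM against 15.6, 10.9 and 7.6 CPM (2.99 ± 0.45). Across all 3867 genes tested, 32 (0.828%) were called higher and 34 (0.879%) lower, in a fit that replicate 3 entered with 5 cells.

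**Figure D4:**
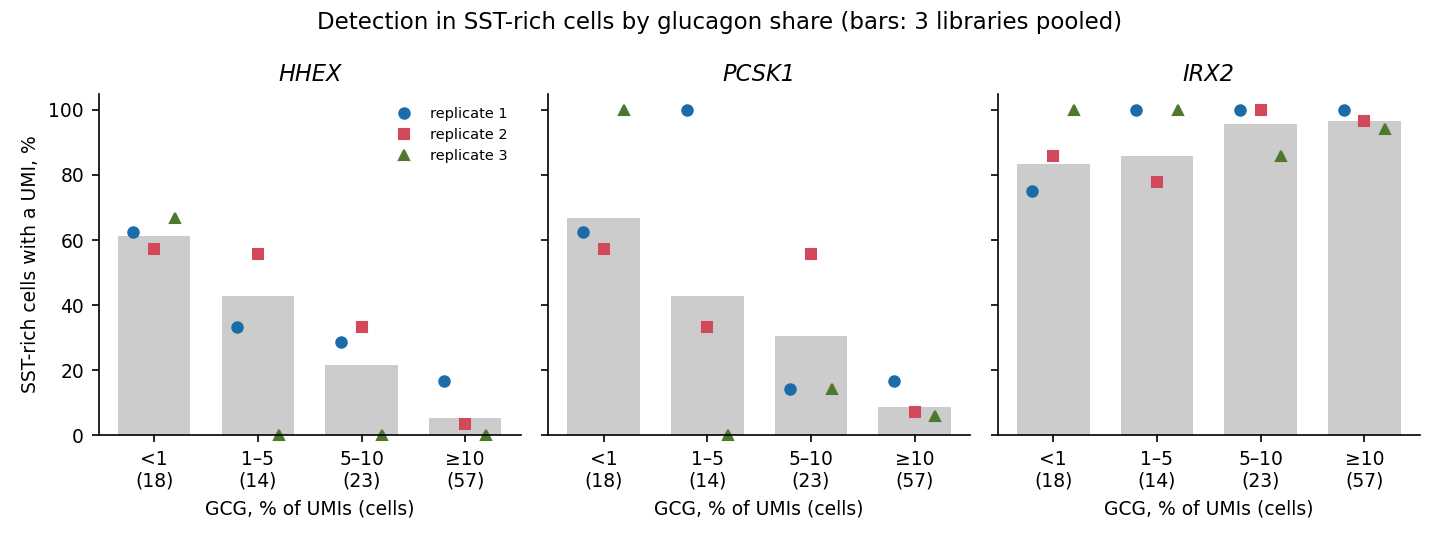
Percent of SST-rich cells with at least 1 UMI (y) of HHEX, PCSK1 and IRX2 by GCG share (x, cell numbers in brackets), with bars for the 3 libraries pooled and 1 point per library. HHEX steps down from 61.1% of cells under 1% GCG to 5.26% at 10% or more, while IRX2 is found in 83.3% and 96.5% of the same groups.

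Several alpha genes were lower in the GCG-low members, which GCG itself had chosen. Of 13 alpha markers beside GCG, 10 were tested, 5 were called lower and 1 higher. TTR stood at 43095, 46003 and 54659 CPM against 77673, 84249 and 87173 CPM, without overlap (log2 fold change -0.93 ± 0.10). IRX2, an Iroquois factor of alpha cells, stood at 202.8, 387.5 and 437.6 CPM against 444.9, 525.3 and 454.0 CPM (-0.70 ± 0.21, edgeR adjusted p = 0.0496). IRX2 kept its call in 4 of 12 alternatives. CRYBA2 and SLC7A2 fell by 0.73 and 0.82 and SPINK1 by 1.49 on the log2 scale. SLC7A2 kept its call in 5 of 12 alternatives and in none that left out a replicate. CRYBA2 kept its call in 8 of 12, not without replicate 2 or replicate 3, and SPINK1 in 11 of 12, not without replicate 2. GC fell by 1.23, although it was higher in replicate 1, where 1 cell held most of its UMIs. TTR was nevertheless far above the 641, 544 and 1141 CPM of collagen cells. In the GCG-low members DLK1 was higher (2.04 ± 0.30, with 53.2% of its UMIs in 1 cell), as were TM4SF4 (1.77 ± 0.24), CD24, a surface glycoprotein (1.51 ± 0.24), TUBB2B, a tubulin of immature neurons (1.92 ± 0.47), and DHRS2 (1.67 ± 0.31). PTGER3, a prostaglandin receptor gene, fell by 2.00, from 140.0, 127.5 and 213.6 CPM in the GCG-rich members to 35.8, 37.9 and 46.1 CPM. Granule genes gave no call in either direction, of 12 tested, where 0.828% of all genes were called higher and 0.879% lower.

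The contrast between GCG-low and GCG-rich members rested on few cells. Without replicate 2 it called 1 gene higher and 5 lower, and without replicate 3 it called 1 higher and 1 lower, HHEX, PCSK1, DLK1, PTGER3, CD24, DHRS2 and TUBB2B falling short in both and TTR without replicate 3. The log2 fold change of HHEX stayed between 2.22 and 3.53 over the alternatives run. The GCG-low members had median depths of 18058, 13865 and 8970 UMIs, below the 18681, 30976 and 13563.5 of the GCG-rich members. In replicate 2, 5 of 16 GCG-low and 1 of 37 GCG-rich cells had fewer than 5000 UMIs. Median mitochondrial shares there were 10.9% and 14.9%.

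INS-rich cells (INS at 1% of UMIs or more and above SST) were the class most like the SST-rich one in rule, with 25, 51 and 6 cells. Replicate 3 was too small for a fit, so only values are given, and 37 of the 82 cells also belong to the comparator. HHEX had 0 UMIs in the 82 cells, which allows up to 3.66% of them with a UMI, while 25 of 112 SST-rich cells had one. ERO1B stood at 476.6, 462.7 and 565.9 CPM in INS-rich cells and at 509.2, 522.1 and 399.3 CPM in SST-rich cells. ALDH1A1 stood at 1571.7, 1592.5 and 1504.7 CPM in INS-rich cells, between the comparator and the SST-rich cells in replicates 1 and 2 and level with the SST-rich cells in replicate 3. DPP4 stood at 459.7, 385.4 and 437.2 CPM in INS-rich cells, above the SST-rich cells in each library. RBP4 stood at 9.6, 31.2 and 38.6 CPM in INS-rich cells, above the SST-rich cells in replicates 2 and 3. Its value in replicate 3 came from 1 of the 6 cells. CASR stood at 69.8, 48.5 and 102.9 CPM in INS-rich cells, above the SST-rich cells in replicates 1 and 3.

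The SST-rich cells were given no cell type name, because HHEX was the 1 delta marker that passed the test against glucagon cells as designed, and RBP4 passed in 3 of 14 alternatives. The 25 cells with HHEX held between 0.0738% and 25.8% GCG.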

How the data were processed

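The data are 3 single-cell libraries (10x Genomics 3' v3). The authors deposited whole-number UMI counts per gene and barcode for each, made with Cell Ranger 4.0.0 and GRCh38, per the submitters' processing notes; the version of the gene annotation is not given in the sources used here. All members and gene lists were chosen with earlier results of these data known. Total counts were 30139788, 31122791 and 30980799 UMIs in 2850, 2576 and 4257 barcodes. Barcodes with 1000 or more genes and a mitochondrial share up to 20% were kept. Scrublet (scanpy 1.11.5) was run per library.

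Counts were summed per class and library, SST, INS and GCG were removed, and edgeR 4.0.16 (TMM, filterByExpr, quasi-likelihood test, library as block, Benjamini-Hochberg threshold 0.05) was fitted over all genes. The SE is the log2 fold change over the square root of F. Each library supplies a sum for both classes, so the sums are paired by design. The contrast of GCG-low with GCG-rich members was fitted with a minimum of 5 cells, chosen after the cell counts were seen. Intervals are exact Clopper-Pearson and cover counting error only. DESeq2 1.42.0, thinning to 5000 UMIs and other filters were alternatives. Named genes were all members of the delta, alpha, beta and peptide lists, up to 4 called members of each other list by fold change, and outside the lists up to 10 per direction (5 in the contrasts within GCG levels) with at least 50 CPM, a log2 fold change of at least 1 and 1 sign in all libraries. The uncalled islet factors, CHGA, CHGB, EGR1, SSTR2 and PTPRN among the GCG-rich cells were added after their values were seen. On simulated data 53% of genes changed by 1 on the log2 scale were recovered for SST-rich cells against the comparator. The share was 42% for GCG-low against GCG-rich members and 50% for GCG-rich members against the comparator. The changed genes had mean counts above 5, and the simulated spread was taken from the fits themselves. Some genes that the counts of calls include are not reported here by name.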

Additional observations from a re-analysis of the deposited data

Results flagged for a closer look

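Barcodes that the filters on genes and mitochondrial UMIs had left out also held somatostatin RNA. The SST and INS conditions were met by 13, 45 and 12 of the 1690, 1549 and 2791 left-out barcodes of replicates 1, 2 and 3. Of these, 6, 21 and 3 had fewer than 1000 genes, and 7, 24 and 9 had more than 20% mitochondrial UMIs. They enter no comparison. As among the kept cells, replicate 2 had the largest share, 2.91% against 0.769% and 0.430%.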

How the results depend on the processing

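Counts of called genes depended on the processing, and are given as higher and lower. For SST-rich cells against the comparator (90 and 61), DESeq2 called 26 and 19, a comparator with GCG at 10% or more gave 56 and 39, a mitochondrial limit of 15% gave 39 and 30, thinning gave 14 and 14, and testing without a filter on low counts gave 107 lower. For GCG-low against GCG-rich members (32 and 34), DESeq2 called 4 and 3, no filter gave 19 and 18 and thinning 1 and 6. For GCG-rich members against the comparator (36 and 36), DESeq2 called 7 and 8, a limit of 15% gave 23 and 20, thinning 12 and 17, and a comparator with 0 SST UMIs 16 lower.

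The library is the block that pairs the sums. With no replicate block the 3 contrasts gave 5 and 1, 6 and 5, and 0 and 0. Leaving out each replicate gave 46 to 120 and 36 to 80, 1 to 15 and 1 to 16, and 19 to 33 and 18 to 35. It also moved the thinned share of cells with HHEX to 11.4% to 20.3% (GCG-low 30.0% to 47.3%, GCG-rich 4.17% to 9.72%), RBP4 to 3.19% to 8.55% and LEPR to 0% to 1.79%. SST-rich cells were 2.28% to 3.87% of kept cells, and GCG at 1%, GCG at 5%, INS at 1% and SST as highest hormone were found in 80.1% to 88.2%, 66.6% to 76.3%, 3.39% to 9.27% and 15.5% to 28.7%.

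With SST at 2% or more the mean share with GCG at 5% was 58.9%, with GCG at 1% 71.6% and with SST highest 37.8%. HHEX at 2 UMIs or more was found in 1.19% of thinned SST-rich cells and in 0% of GCG-low ones, and thinning to 3000 UMIs gave 17.7% of the latter. Leaving out a replicate moved the uncalled log2 fold change of LEPR against the comparator from -0.24 (replicate 1 out) to 0.022 (replicate 3 out), and that of CASR among members from -0.14 (replicate 1 out) to 0.73 (replicate 2 out), so both changed sign. RBP4, uncalled against the comparator, was called in 3 of its 14 alternatives. Apart from fewer cells and UMIs, the causes were not tested. HHEX and HOPX against the comparator were called under all 15 alternatives run. Fits with SST at 2%, the member contrast with a limit of 15%, and fits against INS-rich cells had too few cells and were not run.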
